A study of Homo sapiens with 12 samples.

Results

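The loci of 8 genes widely used as MYC targets, NCL, NPM1, ODC1, CAD, LDHA, CDK4, CCND2 and E2F1, were followed in maps of early DNA synthesis from U2OS-MycER cells, a human osteosarcoma line that carries a MYC-estrogen receptor fusion (MycER) switched on by 4-hydroxytamoxifen (OHT). The genes form a fixed list, chosen by name when earlier results of these data were known, and every early replicating region (ERR) within 50 kb of a gene was examined: 42 of the 18185 ERRs in the 4 deposited lists, 9 of 3874 without OHT and 9 of 4653 with it in shNT cells, and 12 of 4896 and 12 of 4762 in shCDK12 cells. The groups were cells with a non-targeting hairpin (shNT) or a hairpin against the transcription kinase CDK12 (shCDK12), each without OHT or with 300 nM OHT for 40 h. All groups carried MycER, and all received 1 µg/mL doxycycline, 8 h of 100 ng/mL nocodazole, and, after mitotic cells had been shaken off and released, 24 h of 25 µM EdU with 2 mM hydroxyurea. EdU labels new DNA, and hydroxyurea stalls forks near the origins that start first. The labels list 3 samples per group, but each group has 1 deposited list, named as a merge, so that no value below has a replicate error and no difference was tested. Ranks count from the densest ERR of a list, and where 4 values follow each other they are in the order shNT, shNT + OHT, shCDK12, shCDK12 + OHT. Intervals in parentheses after read densities are exact Poisson 95% intervals, which cover counting error only. Whether a list stands apart because of its library, its cells or its treatment cannot be told apart.

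MYC forms a dimer with MAX, binds the E-box CACGTG and raises transcription of genes for ribosome production, nucleotide and polyamine synthesis, glycolysis and passage from G1 into S phase. Genes that are transcribed at the start of S phase often lie in or beside the domains that replicate first, where replication forks and RNA polymerase II share the template. An ERR in these lists is a broad domain called from EdU-labelled DNA. It marks where synthesis took place under hydroxyurea and does not measure transcription, MYC binding or the speed of forks.

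Promoter windows of RefSeq, on GRCh38.p14 and reaching from 250 bases before to 50 after a start site, were matched by symbol for 7 of the 8 genes, with 10 windows in all. No entry was matched for CCND2. The E-box CACGTG, which reads the same on both strands, was in at least one window of 3 of these 7 genes, CDK4, LDHA and ODC1, and in 7.26% of the 35116 windows of the whole table (8.77% of 27305 genes). The sequences below are shown because they hold the motif that MYC-MAX binds, at genes whose start sites lay inside an ERR in all 4 lists, and capitals mark the E-box. CDK4 had 3 copies, with their first bases at -216, -196 and -101 from the start site. LDHA had 2 copies, at -185 and -87. For ODC1 the 2 copies lay by another annotated start site, at -29 and at base 6, and only the 26 bases around each are given. The upstream sequence of CDK4 covers chr12:57752311-57752560 on the minus strand and that of LDHA chr11:18394313-18394562 on the plus strand. The ODC1 stretches cover chr2:10448026-10448051 and chr2:10447992-10448017 on the minus strand. These positions are on GRCh38.p14 and were not set against the ERRs, which are on hg19.
CDK4 upstream: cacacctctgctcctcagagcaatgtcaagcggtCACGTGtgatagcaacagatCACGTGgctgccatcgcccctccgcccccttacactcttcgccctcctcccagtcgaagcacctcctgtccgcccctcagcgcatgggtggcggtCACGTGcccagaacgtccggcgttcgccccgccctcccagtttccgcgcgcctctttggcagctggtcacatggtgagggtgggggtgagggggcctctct
LDHA upstream: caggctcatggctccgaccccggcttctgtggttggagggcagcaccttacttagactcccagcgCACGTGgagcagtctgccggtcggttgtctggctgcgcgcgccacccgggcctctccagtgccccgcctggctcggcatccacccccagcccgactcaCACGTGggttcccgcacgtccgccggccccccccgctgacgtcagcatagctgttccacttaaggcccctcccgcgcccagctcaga
ODC1 E-box 1: gggccccgggCACGTGtgcggcgcgc
ODC1 E-box 2: cctgcggagaCACGTGgtcgccgagc
The related motif CACGCG, searched on both strands (CGCGTG on the other) with overlapping copies counted, was in windows of 3 of the 7 genes (NPM1, ODC1 and LDHA) and in 11.4% of all windows (13.5% of genes). NCL, CAD and E2F1 had neither motif in these windows. The share of G and C in the members' windows ran from 47.7% to 80.7%, against a median of 58.7% over all windows.

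In shNT, 7 of the 8 loci had an ERR within 50 kb, and in each of the other 3 lists all 8 did. As background, windows of 112.374 kb (the members' median length, gene and flanks) laid end to end over the autosomes and chromosome X held an ERR in 25%, 28.1%, 26.7% and 29.5% of cases in the 4 lists. An ERR overlapped the gene itself at the same 7 loci in shNT and at all 8 in the other lists, against 16.2%, 18.1%, 16.9% and 20% of tiles of the median gene length. These tiles include gene-poor sequence and assembly gaps, so they describe the genome and not other genes. The start site lay inside an ERR for 7 genes in every list. CCND2 was the exception throughout. For scale, all ERRs outside chromosome M covered 447, 494, 457 and 552 Mb in the 4 lists.

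Coverage of the gene and its flanks set the loci apart more than presence did. The windows of NCL and ODC1 were covered whole in all 4 lists. That of CAD was covered whole in 3 lists and to 95.9% in shCDK12 + OHT. E2F1 was covered to 91.4% in shNT, 94.7% in shCDK12 and whole in both lists with OHT. CDK4 ranged from 77.8% in shCDK12 to 94.6% in shNT + OHT, NPM1 from 73.3% in shNT + OHT to 86.7% in shCDK12, and LDHA from 52.7% in shNT to 83.1% in shCDK12 + OHT. CCND2 had the lowest coverage in every list, from 0 in shNT to 62.2% in shCDK12 + OHT.

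**Figure D1:**
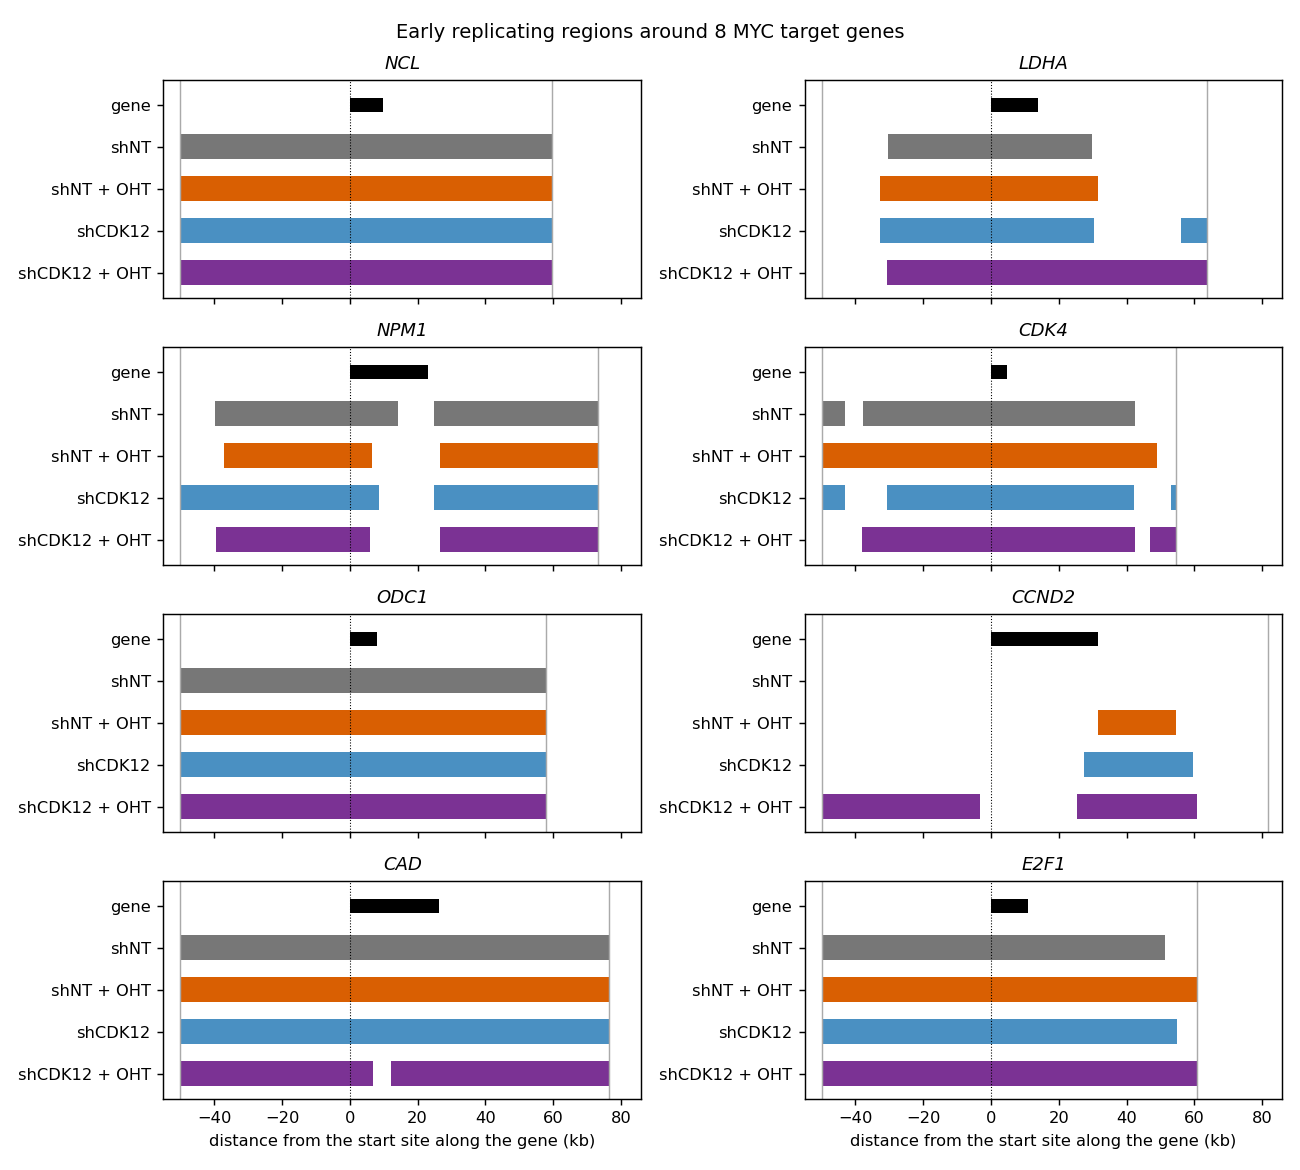
ERRs (coloured bars, 1 row per list) within 50 kb of each gene (black bar), drawn along the direction of transcription with the start site at 0. The x axis is in kb, grey lines mark the limits of the window, and bars end there. The start site lies under a bar in every list for 7 genes, CCND2 has no bar in shNT, and gaps open inside NPM1 in all lists and inside CAD in shCDK12 + OHT.

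NCL encodes nucleolin, an abundant nucleolar protein that takes part in making and processing ribosomal RNA. The gene (hg19 chromosome 2, 232319459 to 232329205, minus strand) lay inside a single ERR in every list. Without OHT this ERR was 211.2 kb wide in shNT (232209201 to 232420400) and 208 kb in shCDK12 (232210001 to 232418000). With OHT it was 403.6 kb in shNT cells (232210401 to 232614000) and 452.4 kb in shCDK12 cells (232189201 to 232641600). In shNT cells the extension was on the upstream side: from the start site the ERR reached 91.2 kb upstream without and 285 kb with OHT, while its downstream reach was 120 kb and 118.8 kb. In shCDK12 cells it was on both sides, from 88.8 to 312 kb upstream and from 119.2 to 140 kb downstream. A separate ERR that began 97.6 kb from the gene in shNT, and 96.8 kb from it in shCDK12, lay wholly or for the most part within the wide ERR of both lists with OHT. Read density over the gene's ERR was 35.6 reads per kb (34.9 to 36.5) without OHT and 145 (144 to 146) with it in shNT cells, and 25.8 (25.2 to 26.5) without and 60.3 (59.5 to 61.0) with OHT after CDK12 silencing. Among the ERRs of its own list, counted from the densest, this was rank 957 of 3873, 460 of 4652, 1277 of 4895 and 790 of 4761, so that NCL stood higher in its list with OHT than without in both backgrounds. The neighbouring ERR was denser than that of the gene without OHT (65.0 reads per kb in shNT, 40.9 in shCDK12), and the pair together held 49.5 and 33.2 reads per kb. The ranks with OHT are those of a wider ERR that took in the stretch of a denser neighbour. The pair was not ranked without OHT, and how far this bears on the higher rank was not tested. Taken over the pair, the log2 density change with OHT minus that of the median region was 0.11 in shNT cells and -0.15 in shCDK12 cells.

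NPM1 encodes nucleophosmin, a histone and ribosome chaperone of the nucleolus. Its locus (chromosome 5, 170814708 to 170837888, plus strand) had a gap between called ERRs that ran from inside the gene to beyond its end in all 4 lists. The calling threshold is not known, so the gap does not show that synthesis was absent there. The ERR at its start site ended inside the gene, 14.1 kb downstream of the start in shNT cells (ERR 170774801 to 170828800) and 6.49 kb downstream with OHT (170777601 to 170821200). After silencing it ended 8.49 kb downstream (170763201 to 170823200), and 6.09 kb with OHT (170775201 to 170820800). The next ERR began beyond the end of the gene, 1.71 kb away without OHT and 3.31 kb away with it. The gap was thus 10.8, 20, 16.4 and 20.4 kb wide, and ERRs covered 60.8%, 28%, 36.6% and 26.3% of the gene. The shortest gap between ERRs anywhere in the lists is 4400 bp, so shorter interruptions could not be seen. The density of the ERR at the start site was 17.5 reads per kb (16.4 to 18.6) without OHT and 53.3 (51.2 to 55.5) with it in shNT cells, and 16.03 (15.04 to 17.08) without and 41.7 (39.8 to 43.6) with OHT after CDK12 silencing, at ranks 2713, 2276, 2723 and 1614. It was below the median ERR of its list in both lists without OHT. The ERR beyond the gene held 16.05, 49.5, 16.7 and 31.5 reads per kb in the same order of lists. Of the 8 genes, NPM1 alone had its start site in one ERR and its end outside it in every list.

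ODC1 encodes ornithine decarboxylase, the rate-limiting enzyme of polyamine synthesis. The gene (chromosome 2, 10580508 to 10588453, minus strand) had the densest gene-overlapping ERR of the 8 loci in every list. Its density was 70.4 reads per kb (69.3 to 71.5) without OHT and 184 (182 to 185) with it in shNT cells, and 49.99 (49.0 to 51.0) without and 93.5 (92.6 to 94.4) with OHT after CDK12 silencing, at ranks 266, 296, 354 and 258. In each list it was thus among the upper 5.42% to 7.23% of ERRs by density. The ERR was 220.8 kb wide in shNT (10497601 to 10718400) and 194.8 kb in shCDK12 (10512001 to 10706800), against 640 kb in shNT + OHT (10069201 to 10709200) and 407.6 kb in shCDK12 + OHT (10297601 to 10705200). The extension was downstream of the gene, where the ERR reached 90.8 kb from the start site in shNT and 519 kb with OHT, while the upstream reach stayed between 117 and 130 kb in the 4 lists. In shNT the sequence beyond held an ERR of its own, 422 kb wide and 88.9 kb from the gene, with 61.2 reads per kb.

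CAD encodes the enzyme that carries out the opening steps of pyrimidine synthesis. The gene (chromosome 2, 27440258 to 27466660, plus strand) lay whole inside a broad ERR in 3 lists: 679.6 kb wide in shNT (27132001 to 27811600), 455.6 kb wide when OHT was added (27110801 to 27566400) and 550.4 kb wide after silencing alone (27060801 to 27611200). In shCDK12 + OHT a gap of 5.2 kb (27447201 to 27452400) lay wholly inside the gene. It began 6.94 kb downstream of the start site and divided an ERR of 834.4 kb on the promoter side (26612801 to 27447200) from one of 107.6 kb (27452401 to 27560000) that held 14.3 kb of the gene. The gap is close to the shortest the lists show, and joining ERRs up to 10 kb apart closes it. Density was 36.4 reads per kb (35.96 to 36.9) in shNT, 135 (134 to 136) when OHT was added and 29.6 (29.1 to 30.1) after silencing alone, at ranks 916, 526 and 1003. In shCDK12 + OHT it was 59.7 on the promoter side (59.2 to 60.3, rank 802) and 92.5 on the other (90.7 to 94.3, rank 264).

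LDHA encodes the A subunit of lactate dehydrogenase, which turns pyruvate into lactate. The gene (chromosome 11, 18415936 to 18429765, plus strand) lay whole inside an ERR in all lists. This ERR was compact in 3 of them, 60 kb wide in shNT (18385601 to 18445600), 64.4 kb wide when OHT was added (18383201 to 18447600) and 63.2 kb wide after silencing alone (18383201 to 18446400). In shCDK12 + OHT it was 152.8 kb (18385201 to 18538000), with the added length downstream of the gene: it reached 122 kb downstream of the start site, against 29.7 to 31.7 kb in the other lists, and 30.7 kb upstream, against 30.3 to 32.7 kb. In shCDK12 a small ERR of 20.4 kb stood by itself in that stretch, 42.2 kb from the gene, with 14.02 reads per kb. The density of the gene's ERR was 35.7 reads per kb (34.2 to 37.3) without OHT and 83.0 (80.8 to 85.2) with it in shNT cells, and 26.8 (25.5 to 28.1) without and 33.2 (32.3 to 34.1) with OHT after CDK12 silencing, at ranks 950, 1233, 1211 and 2371. The lowest of these ranks was that of the widest of the 4 ERRs. The lists give one read count for an ERR, so the density over the compact core was not analysed here.

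CDK4 encodes the G1 kinase that works with D-type cyclins. It is the shortest of the 8 genes (4.72 kb, chromosome 12, 58141510 to 58146230, minus strand) and has the most coding neighbours, 9 within 50 kb in the RefSeq annotation of the other build, among them TSPAN31, METTL1 and TSFM. It lay whole inside an ERR in all lists. Around the gene the ERR was 80.4 kb wide in shNT (58103601 to 58184000), and in the shCDK12 cells it was 72.8 kb without OHT (58104001 to 58176800) and 80.8 kb with it (58103601 to 58184400). In shNT + OHT it was 222 kb (58097201 to 58319200), having taken in the next ERR upstream, which began 43.0 kb from the gene in shNT and in shCDK12. On the downstream side, shCDK12 had an ERR of 46.8 kb that came within 48.3 kb of the gene (11.6 reads per kb, rank 4369) and shCDK12 + OHT one of 52.4 kb within 42.3 kb (26.3 reads per kb, rank 3495). Density of the whole ERR over the gene was 47.9 reads per kb (46.5 to 49.5) without OHT and 104 (102 to 105) with it in shNT cells, and 28.4 (27.2 to 29.6) without and 52.1 (50.5 to 53.7) with OHT after CDK12 silencing, at ranks 550, 860, 1073 and 1067. The rank was highest in shNT. In shNT + OHT it is the rank of the wider ERR. The neighbour that this ERR took in had 29.1 reads per kb and rank 1326 in shNT. The ERR closest to the 50 kb limit from outside was also at this locus: a region of shCDK12 + OHT that lay 50.6 kb from the gene (26.4 kb wide, 28.2 reads per kb) was not counted.

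CCND2 encodes cyclin D2, one of the partners of CDK4. Its locus (chromosome 12, 4382902 to 4414522, plus strand) was the only one without an ERR in shNT, where the nearest region was 461 kb away. In the other lists an ERR lay over or just at the end of the gene and beyond it: 23.2 kb wide in shNT + OHT (4414401 to 4437600), and in the shCDK12 cells 32 kb without OHT (4410401 to 4442400) and 35.2 kb with it (4408401 to 4443600). It reached 0.122, 4.12 and 6.12 kb into the gene, so that in shNT + OHT the overlap was a single edge. The start site was 31.5 kb from the nearest ERR in shNT + OHT and 27.5 kb in shCDK12. In shCDK12 + OHT a further ERR of 78.4 kb (4301201 to 4379600) ended 3.30 kb upstream of the start site. The density of the ERR at the end of the gene was 39.6 reads per kb (37.1 to 42.3) in shNT + OHT, and 14.6 (13.3 to 15.95) and 35.03 (33.1 to 37.04) in shCDK12 cells without and with OHT, at ranks 3323, 3134 and 2168. The further ERR had 19.8 reads per kb (18.8 to 20.8) and rank 4716 of 4761, near the bottom of its list. Absence from a list means only that nothing passed its calling threshold, which is not known.

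E2F1 encodes a transcription factor of S-phase genes and is itself induced as cells enter S phase. The gene (chromosome 20, 32263292 to 32274210, minus strand) lay whole inside a broad ERR in all lists, 322.4 kb wide without OHT (32222801 to 32545200) and 380 kb with it (32212401 to 32592400) in shNT cells. After silencing it was 372 kb (32219201 to 32591200), and 279.6 kb when OHT was added (32144401 to 32424000). A second ERR lay near it in shCDK12 + OHT, and the 2 together covered 439.6 kb. In shNT there was also a second ERR, with 368 kb covered by the 2. The gene sat near the downstream edge of the ERR over it in the first 3 lists, 51.4, 61.8 and 55.0 kb from the start site, and further from that edge, 130 kb, in shCDK12 + OHT. Density was 31.2 reads per kb (30.6 to 31.8) without OHT and 84.8 (83.9 to 85.7) with it in shNT cells, and 28.1 (27.5 to 28.6) without and 55.7 (54.8 to 56.6) with OHT after CDK12 silencing, at ranks 1205, 1195, 1099 and 939.

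Compared with all ERRs of the same list, the gene-overlapping ERRs of the members lay in the upper part by density. They were above the list median for 6 of 7, 7 of 8, 6 of 8 and 8 of 8 genes in the 4 lists. The list medians were 22.3, 52.4, 17.2 and 33.1 reads per kb. The members' median rank, as a share of the list counted from the densest, was 24.5%, 22.1%, 23.6% and 21%. Ranked by the deposited score it was 15.1%, 11.1%, 20.2% and 20.1%. They were also broad, with median widths of 211, 301, 134 and 130 kb against 74.4, 60.4, 55.6 and 71.2 kb over all ERRs of the same lists. The last of the members' medians takes for CAD the ERR with more of the gene. With the ERR that holds the CAD start site, a choice added after the values were seen, it was 216 kb. Any given gene is more likely to fall in a broad region than in a narrow one.

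**Figure D2:**
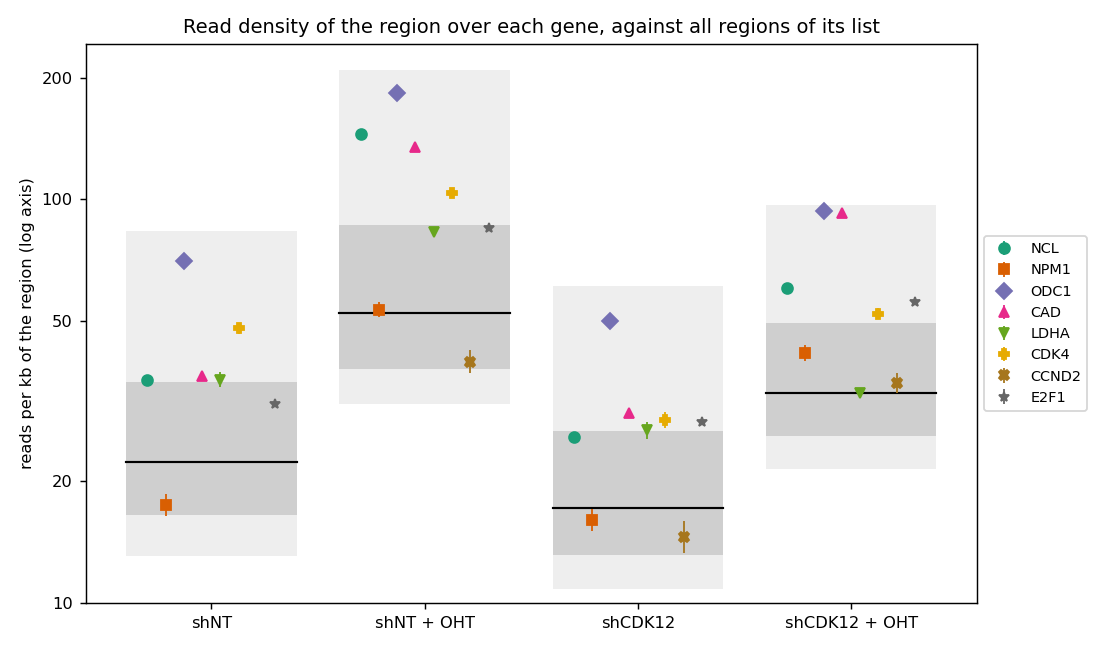
Reads per kb of the ERR over each gene (points, log axis, with exact Poisson 95% intervals mostly smaller than the symbols) in the 4 lists. Light bars span the 5th to 95th percentile of all ERRs of the list, dark bars the quartiles, and black lines the median. For CAD in shCDK12 + OHT the ERR with more of the gene is drawn. ODC1 is highest in every list, and CCND2 has no point in shNT.

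The order of the loci differed between lists, apart from ODC1 at the top. In shNT it was followed by CDK4, and then CAD, LDHA and NCL had overlapping intervals (36.4, 35.7 and 35.6 reads per kb), with E2F1 and NPM1 below them. In shNT + OHT, NCL and CAD came next, ahead of CDK4. The intervals of E2F1 and LDHA overlapped (84.8 and 83.0), and NPM1 and CCND2 were lowest. In shCDK12, CAD, CDK4, E2F1, LDHA and NCL lay within 25.8 to 29.6 reads per kb, each interval overlapping that of the next, and NPM1 and CCND2 (16.03 and 14.6) also overlapped. In shCDK12 + OHT the interval of ODC1 overlapped that of the ERR over most of CAD, and LDHA (33.2) was lowest with an interval that overlapped that of CCND2.

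The deposited reads are not scaled to library size, so that changes between lists were read against the median change of all regions. For this, the 4 lists were merged into common regions, and the density in a merged region is the reads of a list divided by the length that list covers in it. Each gene was taken by the merged region over it, which also holds any neighbouring ERR that an ERR of another list bridges to it. The second ERRs at NPM1 and CCND2 are not bridged and stayed outside. Effects of OHT and of silencing share lists with each other, and their values are given side by side without further comparison.

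With OHT in shNT cells the median merged region (3274 held by both lists) changed by 1.45 on the log2 scale, and the 7 loci present in both changed by 1.22 to 1.61. Relative to that median, NPM1 was at 0.16, E2F1 at 0.11, NCL at 0.11, CAD and ODC1 at 0.07, CDK4 at 0.07 and LDHA at -0.23. Thus 6 of 7 loci were slightly above the median region, and none was 1.3-fold above or below it. This count holds for merged regions only. At CAD, the ERR over the gene alone went from 36.4 to 135 reads per kb, against 34.8 to 99.9 for its merged region. At NCL the values were 35.65 to 145 against 49.5 to 145. At ODC1, CDK4 and E2F1 the ERR over the gene instead rose less than the merged region. The median of the 7 loci was 0.07. Centred on narrow regions it was 0.33, with 1 locus past the fold on the higher side, and over the 2 loci with a single ERR in both lists it was -0.029. By the median centring, 2.38% of all merged regions were 1.3-fold higher and 6.17% were 1.3-fold lower. The shares by the narrow centring are not given here. The quartiles of all regions were -0.15 and 0.12, and 5 of the 7 loci lay between them. Covered length was greater at 5 of the 7 loci and smaller at NPM1 (0.807 times) and, marginally, ODC1 (0.996 times). Of all regions, 49.8% were wider. The number of ERRs in the merged region was lower with OHT at 4 loci: NCL, ODC1, CDK4 and E2F1 each held 2 ERRs in shNT and 1 in shNT + OHT. The share of all merged regions with fewer ERRs is not given here, so this count describes these loci only.

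With OHT in shCDK12 cells the median of 3615 merged regions was 1.01, and all 8 loci had values above 0 before centring, from 0.49 at LDHA to 1.38 at NPM1. After centring, NPM1 (0.37), CCND2 (0.26) and CAD (0.21) lay above the median region, and CDK4 (-0.14), NCL (-0.15), ODC1 (-0.15), E2F1 (-0.18) and LDHA (-0.52) below it. LDHA alone was past 1.3-fold, on the lower side, where 7.97% of all regions were. Its unscaled reads were 1978 without and 5066 with OHT, over 83.6 and 152.8 kb of called length, so that the lower density came with more reads over a longer stretch. On the higher side there was none, against 4.43% of all regions. Centred instead on 57 narrow regions (up to 2 kb in all lists), 3 loci were past the fold on the higher side and 0 on the lower side, counts added after the values were seen. The shares of all regions past the fold by this centring are not given here, so these counts have no background. The median of the 8 loci was -0.14 by the first centring and 0.20 by the other, so its direction depended on the centring. The covered length was greater at 7 of the 8 loci, against 72% of all regions. It was 1.83 times greater at LDHA and 0.76 times at NPM1, where 97.1% of all regions had a larger ratio.

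In the absence of OHT, the 3118 merged regions had a median change of -0.27 on silencing. Relative to it, E2F1 (0.23) and NPM1 (0.15) lay above, and CAD (-0.13), ODC1 (-0.19), NCL (-0.30), CDK4 (-0.32) and LDHA (-0.32) below. None of the 7 loci was 1.3-fold higher, against 11.5% of all regions, or 1.3-fold lower, against 14%. Covered length was greater at 6 of 7 loci, whereas 35.9% of all regions were wider. This length counts every ERR in the merged region. The ERR over the gene itself was narrower in shCDK12 at NCL, ODC1, CDK4 and CAD, and wider at NPM1, LDHA and E2F1. At LDHA the covered length includes the separate ERR of 20.4 kb. The ratios ran from 0.914 at ODC1 to 1.39 at LDHA. CCND2 entered this comparison only as present in shCDK12 and absent in shNT.

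With OHT, silencing spread the loci over the widest range of centred values among the 4 comparisons. All merged regions, too, had their widest range there, with 5th and 95th percentiles of -0.69 and 0.54. For silencing without OHT these percentiles were close to that, at -0.63 and 0.52. They were -0.46 and 0.36 for OHT in shCDK12 cells, and -0.41 and 0.30 for OHT in shNT cells. The median of 3633 merged regions was -0.66, and the loci ranged from -1.32 to -0.18 before centring. Relative to the median, LDHA was at -0.67, NCL at -0.61, CDK4 at -0.58 and ODC1 at -0.47, so that 4 of 8 loci were 1.3-fold lower, against 17.5% of all regions. CCND2 was 1.3-fold higher (0.48), as were 13.7% of all regions. Centred on narrow regions or on tiles of the genome, settings added after the values were seen, 3 loci were past the fold on the lower side and 2 on the higher side. The shares of all regions by these centrings are not given here. By the median centring, NPM1 was at 0.30, CAD at -0.04 and E2F1 at -0.11. Densities of the merged regions went from 145 to 60.3 reads per kb at NCL, from 184 to 84.1 at ODC1, from 104 to 43.97 at CDK4 and from 83.0 to 33.2 at LDHA, against 99.9 to 61.4 at CAD and 84.8 to 49.9 at E2F1. The covered length was greater at 7 of 8 loci, against 57.8% of all regions, and 2.37 times greater at LDHA. The unscaled reads in the merged region were 5344 and 5066 at LDHA (64.4 and 152.8 kb covered), against 58610 and 27264 at NCL (403.6 and 452.4 kb) and 117488 and 52359 at ODC1 (640 and 622.4 kb). Of the 4 lower loci, LDHA was the one whose unscaled read number was similar in both lists and whose covered length differed most. Reads in all regions were 51968675 in shNT + OHT and 30559372 in shCDK12 + OHT, so similar unscaled reads do not mean equal signal.

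The same comparison was made for regions that were dense in shNT. That list is outside the comparison, but it shares its hairpin with shNT + OHT and not with shCDK12 + OHT. Choosing regions by it may thus favour those dense in shNT + OHT, which was not tested. Of 812 merged regions at or above the upper quartile of density in shNT (36.0 reads per kb), 45.2% were 1.3-fold lower in shCDK12 + OHT than in shNT + OHT after centring, against the 17.5% of all regions, and their median was -0.34. NCL (49.5 reads per kb), ODC1 (64.3) and CDK4 (36.3) belong to this class and were each past the fold on the lower side. CDK4 was just inside its limit, and LDHA (35.7) and CAD (34.8) just outside, with centred changes of -0.67 and -0.04, so the count of loci rests on where the limit falls. For OHT in shCDK12 cells the median of 817 such regions was -0.13 and 19.6% were 1.3-fold lower, and none of the 3 loci was. The loci are themselves counted among these regions. This comparison was chosen after the values of the loci were seen.

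**Figure D3:**
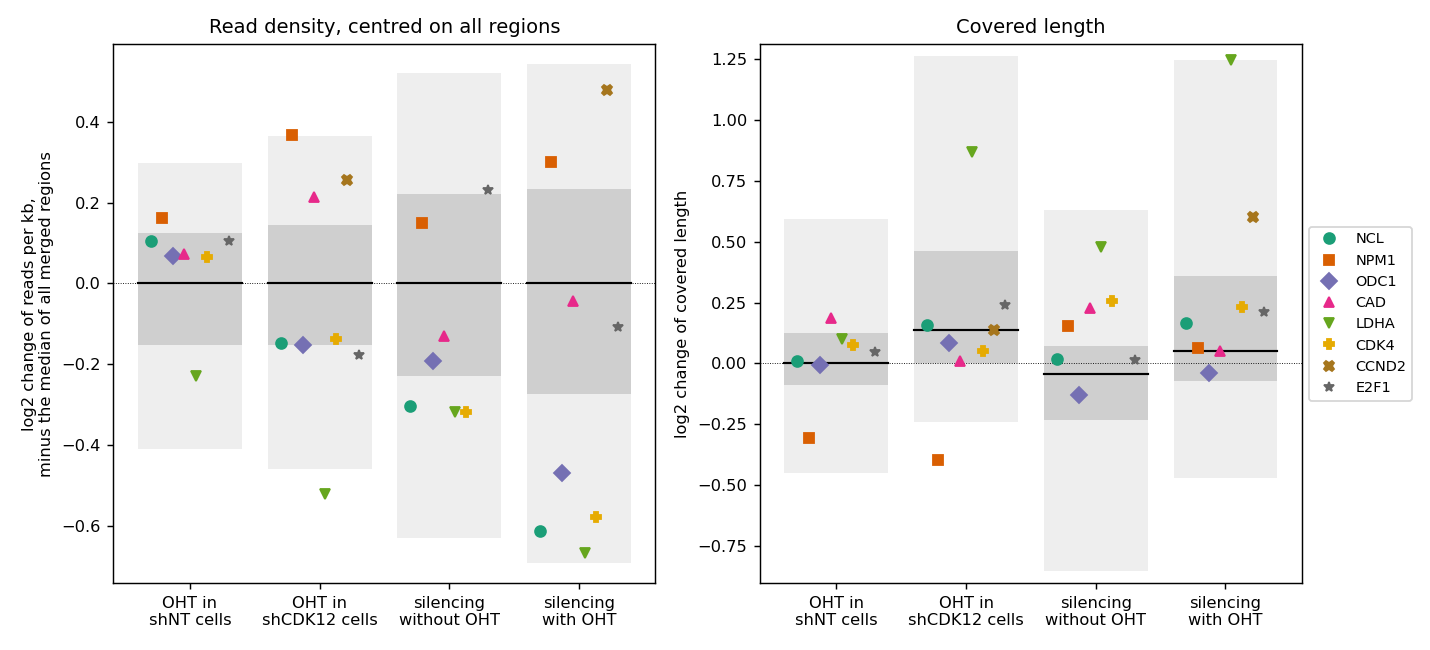
Log2 change of read density minus the median of all merged regions (left) and log2 change of covered length (right) at each locus (points) in the 4 comparisons. Light bars span the 5th to 95th percentile of all merged regions held by both lists, dark bars the quartiles, and black lines the median. With OHT in shNT cells most points sit just above 0 on the left, and with silencing under OHT the points for NCL, ODC1, CDK4 and LDHA sit below the dark bar.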

How the data were processed

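EdU-labelled DNA of 12 samples, 3 for each of 4 conditions, was sequenced. The authors deposited 1 list of regions per condition, which its name calls a merge. Read counts were used as deposited, unscaled to library size, and the deposited score is the authors' own value on an unstated scale, used only in alternatives (ranking, and a common minimum of 146). BWA 0.6.2, SAMtools, SICER and the builds hg19 and mm10 are named in the submitters' processing notes. Caller settings, a control and duplicate removal are not given in the sources used here. Region limits fall on a 400 bp grid and were written as 1-based. For 14 of 24 chromosomes the last region ends more than 400 bp beyond hg38, so positions were taken as hg19 and the hg38 annotation gave only strands, neighbour names and promoter sequences. Other MYC targets could not be placed on the lists and were not analysed here. Reads inside regions ran from 14926387 (shCDK12) to 51968675 (shNT + OHT), which is not library depth.

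Gene intervals were fixed on hg19, with the start site at the 5′ end. Windows were gene plus 50 kb, overlap at least 1 bp, and ranks were by reads per kb outside chromosome M (1 is densest). Density changes were centred on the median of merged regions, with a fold of 1.3 for counts. The rule was to name all 8 genes. The members, lists and measures were chosen with earlier results of these data known. The density change and presence steps were tested on simulated data (200 of 200 planted changes had the right sign, 100 of 100 dropped regions were found absent). Software was Python 3.11.15 with matplotlib 3.10.9, scipy 1.17.1, pandas 2.3.3 and numpy 2.4.6.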

Additional observations from a re-analysis of the deposited data

Results flagged for a closer look

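At 4 loci the density change with OHT, relative to the median merged region, had opposite signs in the 2 backgrounds, and at 2 of them both values were at least 0.1 in size. For NCL the centred log2 change was 0.11 with the shNT hairpin and -0.15 with shCDK12. For E2F1 the values were 0.11 and -0.18. The others were ODC1 (0.07 and -0.15) and CDK4 (0.07 and -0.14). With 1 merged list per condition, these differences were not tested. The share of all merged regions with opposite signs is not given here, so the count of loci has no background. Before centring, all 4 loci had higher density with OHT in both backgrounds. The opposite signs depend on the centring. With narrow regions as the centre, the median of all members with OHT in shCDK12 cells was 0.20, and -0.14 by the centring used here.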

How the results depend on the processing

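With 1 merged list per condition, no replicate could be left out. No paired analysis was possible because the lists hold no values of single replicates. Depth is unknown, so a locus without an ERR was only not detectable under that list's threshold. Of the alternative values, 65 stayed near the reported one, 5 turned in direction from a value over 0.1 in size, and 28 moved otherwise, 1 of them across 0. The number of loci with an ERR was the same under every alternative run (no flank, 25 kb or 100 kb flanks, a common minimum score, 10 kb of overlap). The median covered share in shNT, 87.5%, was 100% with no flank and with 25 kb flanks, and 70% with 100 kb flanks. With 100 kb flanks it was 74.8% in shNT + OHT and 79.2% in shCDK12. Ranked by score, the members' median in shNT + OHT was 11.1%. With the ERR at the CAD start site, the members' median width in shCDK12 + OHT was 216 kb, and their median rank was the same.

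The median centred density change of the members was 0.07 with OHT in shNT cells, -0.14 with OHT in shCDK12 cells, -0.19 with silencing and -0.29 with silencing under OHT, and it depended on the centring. Centred on narrow regions it was 0.33, 0.20 and -0.18 (OHT in shNT cells, OHT in shCDK12 cells, silencing with OHT). Centred on chromosome M it was 1.69, 0.76, -0.46 and -1.21 in the order first given, and without centring 1.52, 0.87, -0.47 and -0.94. For silencing with OHT it was -0.18 both on total reads (-0.179) and on genome tiles (-0.176). Over regions matched one to one, which left 2, 2, 1 and 4 members, it was -0.029, 0.31, 0.14 and -0.18. The sign thus turned with OHT in shNT cells and with silencing without OHT for one-to-one regions, and with OHT in shCDK12 cells for these, for narrow regions, for chromosome M and without centring. The one-to-one values rest on fewer members, and the cause was not tested otherwise.

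At 1.5-fold, the loci past the fold were 0 lower with OHT in shCDK12 cells, and 0 higher and 2 lower with silencing under OHT. Centred on narrow regions, chosen after seeing the data, 1 locus was higher with OHT in shNT cells, 3 higher and 0 lower with OHT in shCDK12 cells, and 2 higher with silencing under OHT. On genome tiles, also chosen after seeing the data, 1 was higher with OHT in shCDK12 cells and 2 with silencing under OHT. The shares of all regions past the fold are not given for any of these settings, so the counts have no background.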
